A study of Mus musculus with 6 samples.

Results

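10 genes were followed, of 57010 in the deposited table: Fn1, Tnc, Postn, Thbs1, Thbs2, Spp1, Sparc, Cthrc1, Lum and Dcn. They were taken by gene symbol, and each of the 10 symbols matched 1 row. They encode matricellular proteins and close companions in the matrix of healing tissue. The libraries came from skin of 6 wild-type mice (genotype WT) at the end of a diabetic ulcer experiment, 3 treated with CST (cortistatin in the series title, a neuropeptide related to somatostatin) and 3 treated with Yoda1 (a small molecule that opens the calcium channel Piezo1). Both agents were given as gels on the skin, and strain, age and the length of treatment are not given in the labels. None of the 6 libraries is of untreated or vehicle-treated skin, so every comparison below sets CST against Yoda1. The labels name mice within a group by number and do not say more about their origin.

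Matricellular proteins are secreted into the matrix but mostly signal to cells rather than bear load. They bind integrins, growth factors and collagen, are sparse in resting dermis, and appear in wounds as granulation tissue forms. Fibronectin (Fn1) is the adhesive glycoprotein of the provisional matrix, tenascin-C (Tnc) modulates adhesion to it, and periostin (Postn) binds both and promotes collagen crosslinking. Thrombospondins 1 and 2 (Thbs1, Thbs2) are inhibitors of angiogenesis, and thrombospondin 1 also activates latent TGF-beta. Osteopontin (Spp1) is a secreted cytokine-like ligand of integrins and CD44 made by macrophages among other cells. SPARC (Sparc) binds collagen and calcium, and Cthrc1 is a secreted protein of activated fibroblasts. Lumican (Lum) and decorin (Dcn) are small leucine-rich proteoglycans that regulate the diameter and spacing of collagen fibrils.

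The 250 bases upstream of a RefSeq start (GRCm38.p6), written 5′ to 3′, are shown for 3 members: Postn, whose groups did not overlap, Spp1, which differed most between groups, and Thbs2, whose ratio to its relative Thbs1 differed between groups. They lie at chr3:54360857-54361106 (plus strand, Postn), chr5:104434861-104435110 (plus strand, Spp1) and chr17:14694263-14694512 (minus strand, Thbs2). Capitals mark matches on either strand to TATAAA (the TATA box), to CCAAT (the CCAAT box) or to AACCACA (a Runt-domain motif).
Postn: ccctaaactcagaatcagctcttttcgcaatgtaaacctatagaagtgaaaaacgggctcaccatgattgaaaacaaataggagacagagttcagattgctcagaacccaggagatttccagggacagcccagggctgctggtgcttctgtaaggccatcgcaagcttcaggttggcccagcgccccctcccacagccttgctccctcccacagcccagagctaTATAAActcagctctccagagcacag
Spp1: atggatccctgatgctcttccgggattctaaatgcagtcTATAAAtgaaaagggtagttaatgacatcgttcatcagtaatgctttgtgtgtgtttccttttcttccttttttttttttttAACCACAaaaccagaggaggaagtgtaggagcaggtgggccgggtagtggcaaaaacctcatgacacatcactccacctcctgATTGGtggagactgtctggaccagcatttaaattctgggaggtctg
Thbs2: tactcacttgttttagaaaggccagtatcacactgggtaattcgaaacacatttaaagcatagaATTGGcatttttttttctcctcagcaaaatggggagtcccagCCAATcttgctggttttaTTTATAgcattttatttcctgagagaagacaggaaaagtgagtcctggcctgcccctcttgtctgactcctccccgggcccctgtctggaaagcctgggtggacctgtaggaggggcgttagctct
In Postn the TATAAA match lay 26 to 21 bases before the start, in Spp1 211 to 206 bases before it, and in Thbs2 on the other strand 126 to 121 bases before it. Over all 32851 such windows of the mouse table, 12.4% held TATAAA, 33.8% CCAAT and 4.40% AACCACA. The Runt-domain match of Spp1 lay 129 to 123 bases before its start, and a CCAAT match on the other strand lay 46 to 42 bases before it. Thbs2 held CCAAT on the other strand at 186 to 182 and on its own at 144 to 140 bases before the start. No matches overlapped. TGANTCA (AP-1, 6.75% of windows), GGGCGG (32.7%) and GTCTAGAC (a Smad motif, 0.167%) were also searched and had no match in these 3 windows. RefSeq lists another start for Postn (window chr3:54359017-54359266) and for Spp1 (window chr5:104435942-104436191). Those windows are not shown and held none of the motifs searched.

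The depth that scaled each library, inferred from the deposited values, was 23791352 to 29620526 reads. Reads of the tested genes made up 99.3% to 99.4% of it, so it need not be the number sequenced. FPKM (fragments per length of gene and per depth of library) gave back whole reads, and the members held between 433 reads (Cthrc1 in Yoda1 mouse 3) and 85032 reads (Spp1 in CST mouse 1). Transcripts of the mitochondrial genome made up 6.72% of all FPKM for CST mouse 1 and 7.61% for Yoda1 mouse 3. That share was 3.25% to 3.81% elsewhere. The labels tag the samples both as skin and as keratinocytes. The 8 keratinocyte markers summed to 10715 to 25033 FPKM, and markers of fibroblasts, macrophages, neutrophils and skeletal muscle were also present, so the libraries are described as skin. In such bulk RNA, fewer cells of a type and less RNA per cell cannot be told apart.

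Of the 10 genes, 8 were lower in CST skin than in Yoda1 skin by their mean log2 value, and 2, Spp1 and Thbs1, were higher. The median log2 change (CST minus Yoda1, on log2(FPKM + 1)) was -0.67 over the members and -0.01 over all 14588 genes tested, of which 52.8% were lower in CST. None of the 10 passed the adjusted threshold of 0.05 by limma, as for all genes tested (percent called 0, smallest adjusted p = 0.521). Limma gave 584 genes an unadjusted p under 0.05, and limma-voom on the recovered reads called 0 genes with 585 at that level. Among the members Postn and Lum had such a p and were lower in CST, as did 0.788% of genes tested, and Spp1 had one and was higher, as did 3.21%. Of the 10 genes only Postn did not overlap between groups, with every CST value below every Yoda1 value. That pattern was seen in 2.08% of genes tested, and groups free of overlap in either direction in 6.59%. The same 8 genes were lower with any 1 mouse left out, and the median then ran from -0.30 without Yoda1 mouse 1 to -0.90 without Yoda1 mouse 3. It was -0.96 without both CST mouse 1 and Yoda1 mouse 3, a choice made after seeing the data.

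**Figure D1:**
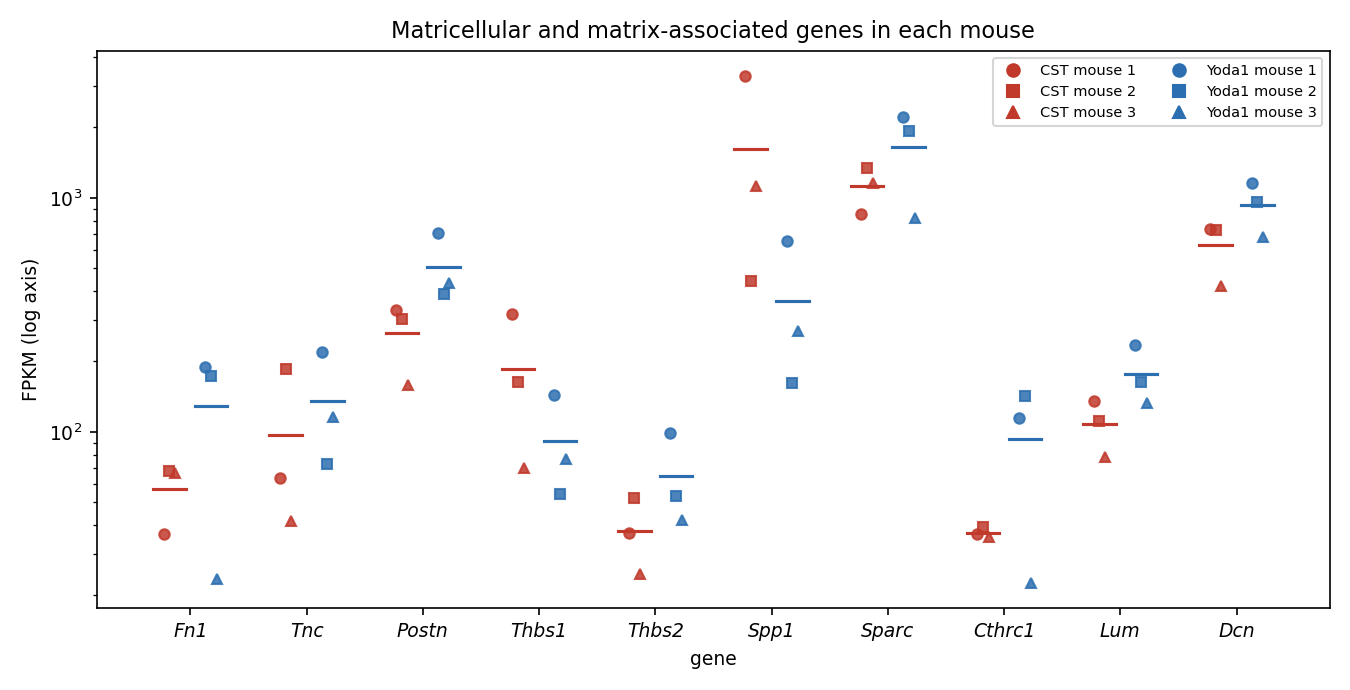
FPKM of the 10 genes on a log axis, with each mouse a point and the group mean a bar, CST in red and Yoda1 in blue. Postn is the gene whose 3 CST points (158 to 333) all lie below its 3 Yoda1 points (387 to 708), and Spp1 spans 161 to 3317.

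Sparc had the highest mean over the 6 libraries, at 1389 FPKM, with a range of 818 to 2225. Spp1 followed at 994 (161 to 3317), Dcn at 781 (421 to 1159) and Postn at 387 (158 to 708). Lum averaged 142 (77.8 to 234), Thbs1 138 (54.4 to 320) and Tnc 116 (41.6 to 219). Fn1 averaged 93.0 (23.4 to 190), Cthrc1 65.2 (22.7 to 142) and Thbs2 51.2 FPKM (24.7 to 99.2). The ranges of neighbours in this order overlapped in each case. Spp1 varied most, with its highest library 20.6-fold above its lowest, and Sparc least, at 2.72-fold. This order depends on the gene lengths behind the FPKM. The shortest length that gave whole reads was 4086 bases for Fn1, against 11685 bases of merged GENCODE exons, and 2448 for Lum by both. Sparc was the highest member in each library but CST mouse 1 by deposited FPKM, whereas per merged exon length Spp1 was highest in CST mice 1 and 3. The ratio of 1 gene between groups does not depend on that length.

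Among the adhesive glycoproteins, Postn (ENSMUSG00000027750, chromosome 3, 54361109 to 54391037 on GRCm38, plus strand) measured 333, 303 and 158 FPKM in CST mice 1 to 3 and 708, 387 and 434 FPKM in Yoda1 mice 1 to 3. The lowest Yoda1 mouse thus stood above the highest CST mouse, and Yoda1 mouse 1 stood well above the other 5. The means were 265 ± 94.0 and 509 ± 173 FPKM in CST and Yoda1 skin (SD, n = 3 each). The log2 change was -0.96 (SE 0.36, 95% interval -1.80 to -0.12, unadjusted p = 0.0296, adjusted p = 0.965 by limma). It was -0.63 without CST mouse 3 (unadjusted p = 0.104, adjusted p = 1.00 by limma) and -0.70 without Yoda1 mouse 1 (unadjusted p = 0.109, adjusted p = 1.00).

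Fn1 (ENSMUSG00000026193, chromosome 1, 71585520 to 71653200, minus strand) measured 36.6, 67.8 and 66.4 FPKM in CST mice and 190, 173 and 23.4 FPKM in Yoda1 mice. Yoda1 mice 1 and 2 were far above all CST mice, and Yoda1 mouse 3 was below them all. CST skin averaged 56.9 ± 17.6 FPKM and Yoda1 skin 129 ± 91.9 FPKM, and limma gave a log2 change of -0.74 with SE 0.75 (adjusted p = 1.00). Single mice moved this value widely: leaving out Yoda1 mouse 1 gave -0.22, Yoda1 mouse 2 -0.29, CST mouse 1 -0.46 and Yoda1 mouse 3 -1.71 (limma adjusted p = 0.296).

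Tnc (ENSMUSG00000028364, chromosome 4, 63959785 to 64047015, minus strand) measured 63.3, 185 and 41.6 FPKM in CST mice and 219, 73.2 and 116 FPKM in Yoda1 mice. The groups overlapped widely: CST mouse 2 stood above Yoda1 mice 2 and 3. Limma gave a log2 change of -0.64 (SE 0.59, 95% interval -1.99 to 0.72, adjusted p = 1.00). Leaving out CST mouse 3 gave -0.18, Yoda1 mouse 1 -0.22, Yoda1 mouse 2 -1.01 and CST mouse 2 -1.25.

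The thrombospondins went opposite ways by their means. Thbs1 (ENSMUSG00000040152, chromosome 2, 118111876 to 118127133, plus strand) measured 320, 164 and 70.2 FPKM in CST mice and 144, 54.4 and 76.2 FPKM in Yoda1 mice. CST mouse 3 lay between Yoda1 mice 2 and 3, so the groups overlapped. CST skin averaged 185 ± 126 FPKM and Yoda1 skin 91.5 ± 46.6 FPKM. On the log2 scale limma put the difference at 0.87 with SE 0.56 (adjusted p = 1.00). Leaving out CST mouse 1 gave 0.35, Yoda1 mouse 2 0.56 and CST mouse 3 1.43.

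Thbs2 (ENSMUSG00000023885, chromosome 17, 14665500 to 14694235, minus strand) measured 36.8, 51.9 and 24.7 FPKM in CST mice and 99.2, 53.0 and 41.9 FPKM in Yoda1 mice. Yoda1 mouse 3 fell within the CST range and the other Yoda1 mice lay above it. On the log2 scale the difference was -0.73 (limma, SE 0.38, adjusted p = 1.00). With Yoda1 mouse 1 left out it was -0.37, with CST mouse 3 left out -0.46, and with Yoda1 mouse 3 left out -0.98.

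Spp1 (ENSMUSG00000029304, chromosome 5, 104435118 to 104441050, plus strand) measured 3317, 443 and 1119 FPKM in CST mice and 656, 161 and 269 FPKM in Yoda1 mice. CST mice 1 and 3 stood above every Yoda1 mouse, and CST mouse 2 lay below Yoda1 mouse 1. CST skin averaged 1626 ± 1503 FPKM and Yoda1 skin 362 ± 260 FPKM, a 4.49-fold ratio of means. The log2 change was 1.95 (SE 0.76, 95% interval 0.18 to 3.71, unadjusted p = 0.0346, adjusted p = 1.00 by limma). It ran from 1.20 without CST mouse 1 to 2.65 without CST mouse 2.

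Sparc (ENSMUSG00000018593, chromosome 11, 55394500 to 55423183, minus strand) measured 853, 1346 and 1160 FPKM in CST mice and 2225, 1931 and 818 FPKM in Yoda1 mice. As for Fn1, Yoda1 mice 1 and 2 were the highest and Yoda1 mouse 3 the lowest of the 6. Limma gave -0.47 on the log2 scale (SE 0.41, adjusted p = 1.00). Leaving out Yoda1 mouse 1 gave -0.19, CST mouse 1 -0.28, Yoda1 mouse 2 -0.29 and Yoda1 mouse 3 -0.91.

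Cthrc1 (ENSMUSG00000054196, chromosome 15, 39076932 to 39087121, plus strand) measured 36.7, 39.2 and 35.5 FPKM in CST mice, the tightest group of any member, and 115, 142 and 22.7 FPKM in Yoda1 mice. Yoda1 mouse 3 was again below all CST mice. CST skin averaged 37.1 ± 1.91 FPKM and Yoda1 skin 93.2 ± 62.5 FPKM, and limma gave -0.94 on the log2 scale with SE 0.61 (adjusted p = 1.00). Leaving out Yoda1 mouse 2 gave -0.46, Yoda1 mouse 1 -0.61 and Yoda1 mouse 3 -1.76 (limma adjusted p = 0.296).

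The proteoglycan genes Dcn (ENSMUSG00000019929, chromosome 10, 97479609 to 97518143, plus strand) and Lum (ENSMUSG00000036446, chromosome 10, 97565128 to 97572703, plus strand) are neighbours, with 46984 bases between them. Lum measured 135, 111 and 77.8 FPKM in CST mice and 234, 163 and 133 FPKM in Yoda1 mice. Only CST mouse 1 and Yoda1 mouse 3, at nearly the same level, kept the groups from separating. The log2 change was -0.70 (SE 0.30, 95% interval -1.39 to -0.02, unadjusted p = 0.0459, adjusted p = 1.00 by limma). Leaving out Yoda1 mouse 1 gave -0.48 and CST mouse 3 -0.49, with unadjusted p = 0.174 and 0.162 by limma (adjusted p = 1.00 for both).

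Dcn measured 734, 729 and 421 FPKM in CST mice and 1159, 960 and 680 FPKM in Yoda1 mice. Here too Yoda1 mouse 3 lay within the CST range and the other Yoda1 mice above it. For Dcn limma gave a log2 change of -0.58 (SE 0.32, 95% interval -1.33 to 0.16, adjusted p = 1.00), and -0.32 without CST mouse 3. The ratio of Dcn to Lum stayed between 5.42 and 6.57 in CST mice and between 4.95 and 5.88 in Yoda1 mice.

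**Figure D2:**
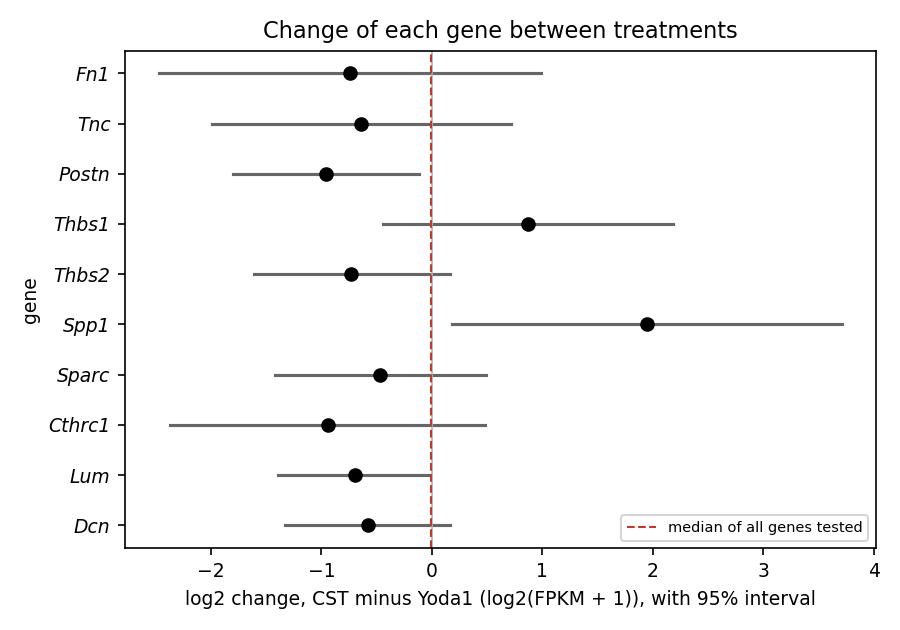
Log2 change of each gene, CST minus Yoda1 on log2(FPKM + 1), with its 95% interval from limma; the dashed line is the median of all genes tested (-0.01). On this plot 8 genes lie left of 0, and the intervals of Postn, Lum and Spp1 leave out 0 before adjustment over all genes.

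Some members followed each other across the 6 libraries, which is given as a description without a test. Fn1, Sparc and Cthrc1 correlated with each other at r = 0.92 to 0.98 (Pearson, log2(FPKM + 1), n = 6 libraries), with high values in Yoda1 mice 1 and 2 and low ones in Yoda1 mouse 3. Postn, Lum, Dcn and Thbs2 correlated at 0.90 to 0.96, with the highest value in Yoda1 mouse 1 and the lowest in CST mouse 3 for each of the 4. Pairs across these sets reached 0.72 (Thbs2 with Sparc, and Cthrc1 with Dcn). Tnc correlated at 0.85 with Thbs2 and 0.75 with Postn, and at 0.22 to 0.41 with Fn1, Sparc and Cthrc1. Spp1 and Thbs1 correlated at 0.75, both highest in CST mouse 1, and Spp1 correlated negatively with each of the other 8 (-0.41 to -0.24). The libraries share their depth and their cell makeup in all of these pairs.

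**Figure D3:**
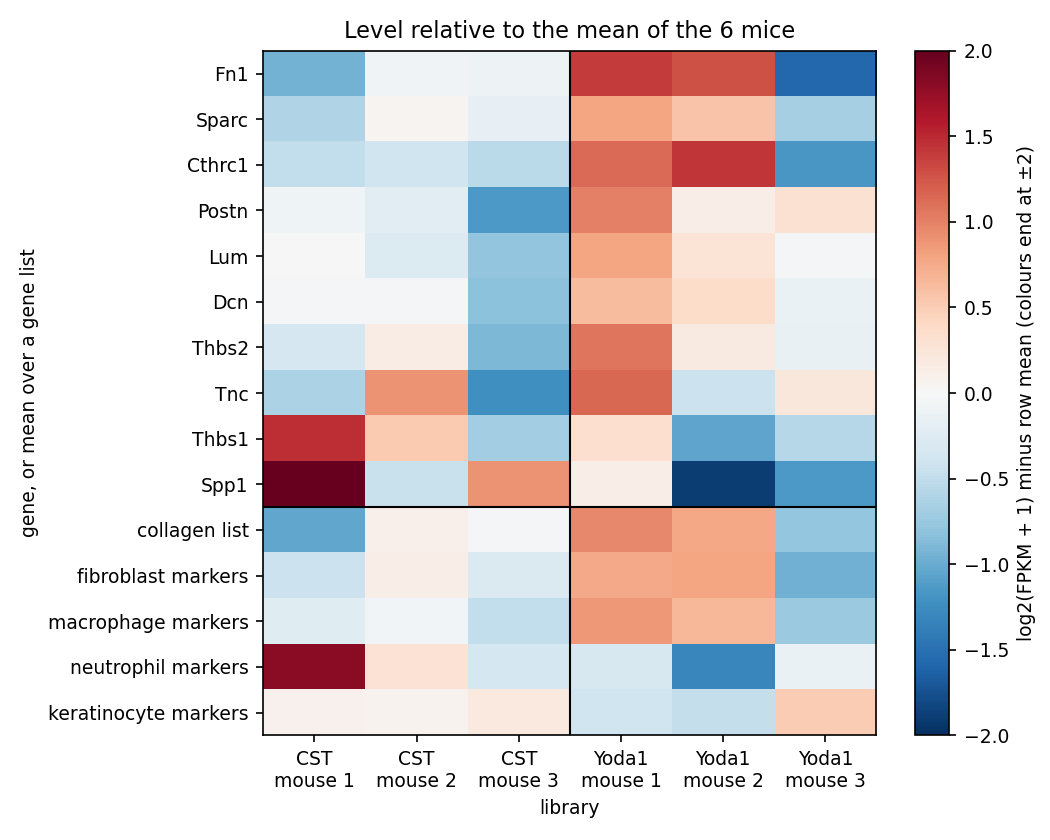
Log2(FPKM + 1) of the 10 genes, and the mean over the collagen list and over the markers of 4 cell types, each minus its mean over the 6 mice (columns, CST left of the line). Fn1, Sparc and Cthrc1 are red in Yoda1 mice 1 and 2 and blue in Yoda1 mouse 3, as are the collagen, fibroblast and macrophage rows, while Spp1 and the neutrophil row are reddest in CST mouse 1.

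Ratios between 2 members within a library do not depend on how libraries are scaled. Their size, also that of Dcn to Lum above, depends on the gene lengths behind the FPKM, and so does whether a ratio is above 1. For Postn the shortest length that gave whole reads was 2275 bases, against 8702 bases of merged GENCODE exons. Whether a ratio separates the groups does not depend on these lengths. In 9 of 45 pairs the ratio separated the groups completely, as in 8.89% of all pairs of genes tested. All 9 set Spp1 or Thbs1 over another member, and since pairs share genes they are not independent. The ratio of Spp1 to Postn was 9.95, 1.46 and 7.10 in CST mice and 0.926, 0.417 and 0.621 in Yoda1 mice. CST mouse 2 came nearest to the Yoda1 mice. The ratio of Thbs1 to Thbs2 was 8.69, 3.16 and 2.85 in CST mice and 1.45, 1.03 and 1.82 in Yoda1 mice. The ratio of Thbs1 to Postn was 0.958, 0.541 and 0.445 in CST mice and 0.203, 0.140 and 0.176 in Yoda1 mice. These pairs were singled out after their values were seen, so they carry no test.

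**Figure D4:**
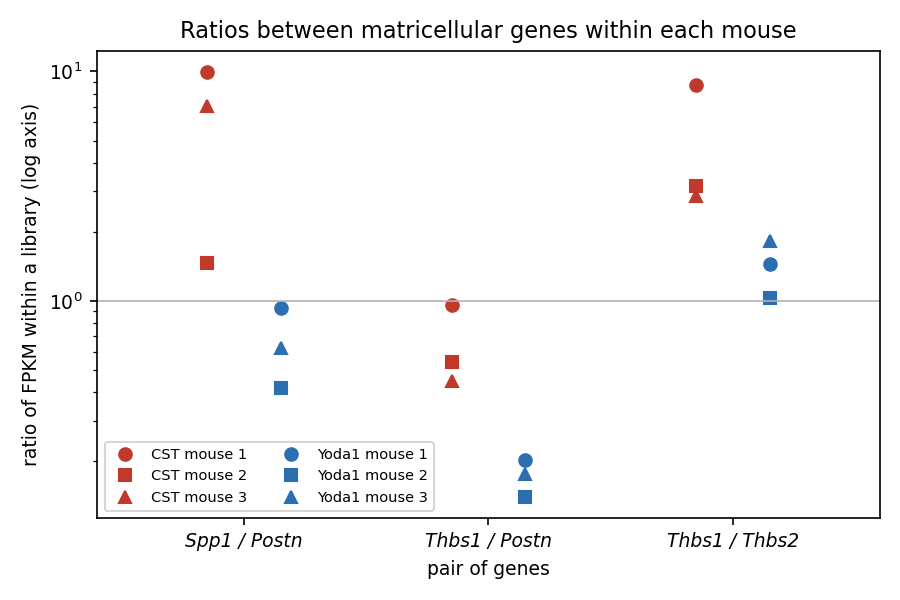
Ratio of FPKM between 2 genes within each library on a log axis, CST in red and Yoda1 in blue, for Spp1 over Postn, Thbs1 over Postn and Thbs1 over Thbs2. In each pair all 3 CST points lie above all 3 Yoda1 points, and for Spp1 over Postn the nearest points are 1.46 in CST mouse 2 and 0.926 in Yoda1 mouse 1.

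Other genes of the same matrix were also lower in CST skin by their means, and limma called none of them. Of 13 fibrillar and fibril-associated collagen genes 12 were lower (median log2 change -0.74, or -0.31 with CST mouse 1 left out, -0.43 with Yoda1 mouse 1 out, -0.47 with Yoda1 mouse 2 out and -1.19 with Yoda1 mouse 3 out). Col6a3, a chain of the beaded-filament collagen VI, measured 39.9 ± 12.6 in CST and 73.8 ± 29.1 FPKM in Yoda1 skin (log2 change -0.85). Col5a2, which helps start fibrils, measured 82.7 ± 15.7 and 148 ± 61.7 FPKM in CST and Yoda1 skin, and Col12a1 13.2 ± 5.96 and 22.1 ± 8.51.

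Of 18 genes for collagen processing and crosslinking 17 were lower in CST (median -0.46, or -0.13 with Yoda1 mouse 2 left out, -0.19 with CST mouse 1 out, -0.22 with Yoda1 mouse 1 out and -0.94 with Yoda1 mouse 3 out). The groups did not overlap in 2, both lower in CST as in 2.08% of all genes tested: P4ha3 and P4hb, which measured 540 ± 24.5 in CST and 616 ± 6.98 FPKM in Yoda1 skin and named after its values were seen. P4ha3, a collagen prolyl hydroxylase subunit, measured 1.35, 3.71 and 1.74 FPKM in CST mice and 7.79, 7.62 and 4.06 FPKM in Yoda1 mice (limma, -1.22 on the log2 scale, SE 0.35, adjusted p = 0.607). Lox, the lysyl oxidase whose activation periostin is known to promote, measured 24.6 ± 6.05 in CST and 41.9 ± 19.6 FPKM in Yoda1 skin, and Loxl3 8.13 ± 2.94 and 19.9 ± 14.3.

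Of 21 tested genes in the list of other matricellular and adhesive glycoproteins 18 were lower in CST (median -0.28, or -0.13 without CST mouse 3, -0.46 without CST mouse 2 and -0.73 without Yoda1 mouse 3). In 2 of the 21 every CST value lay below every Yoda1 value, against 2.08% of all genes tested. Fbln5, a fibulin of elastic fibres, averaged 9.77 ± 1.21 FPKM in CST and 15.8 ± 3.11 FPKM in Yoda1 skin, without overlap (limma, -0.63 on the log2 scale, SE 0.22, adjusted p = 0.856). Tnn, which encodes tenascin-W, averaged 0.829 ± 0.514 in CST and 2.34 ± 0.909 FPKM in Yoda1 skin, also without overlap. Fbln2 measured 86.6 ± 24.5 and 147 ± 54.5 FPKM in CST and Yoda1 skin.

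Of 9 tested small leucine-rich proteoglycan genes beside Lum and Dcn 7 were lower in CST (median -0.26, but 0.00 without CST mouse 3, -0.12 without Yoda1 mouse 1 or 2 and -0.52 without Yoda1 mouse 3), with no gene free of overlap. Bgn, which encodes biglycan, the nearest relative of decorin, measured 308 ± 157 in CST and 572 ± 349 FPKM in Yoda1 skin. Aspn measured 20.4 ± 14.7 and 32.3 ± 7.53, and Prelp 30.6 ± 7.97 and 50.7 ± 27.2 FPKM, in CST and Yoda1 skin.

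Receptors of these proteins had a median nearer 0 (-0.22, with 13 of 17 lower in CST). Leaving out CST mouse 3 gave -0.05, Yoda1 mouse 1 -0.09, CST mouse 2 -0.37 and Yoda1 mouse 3 -0.43. Cd36, a thrombospondin receptor, measured 53.2 ± 8.14 in CST and 121 ± 102 FPKM in Yoda1 skin. Its Yoda1 mean rested mostly on mouse 1, with 237, 51.0 and 73.5 FPKM in Yoda1 mice 1 to 3. The endocytic receptor gene Lrp1 measured 139 ± 34.5 in CST and 208 ± 66.3 FPKM in Yoda1 skin. Itgb6, the epithelial integrin subunit that binds fibronectin and latent TGF-beta, was higher by its mean, at 7.92 ± 1.25 in CST and 5.53 ± 2.54 FPKM in Yoda1 skin. Cd44, a receptor for osteopontin, measured 215 ± 50.8 in CST and 219 ± 34.4 FPKM in Yoda1 skin (log2 change -0.04, 95% interval -0.62 to 0.54); it was named after its values were seen.

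In the TGF-beta list 11 of 14 genes were lower (median -0.15, but 0.00 with Yoda1 mouse 1 left out, -0.06 with CST mouse 3 left out and -0.31 with Yoda1 mouse 3 left out). Tgfbr2 measured 21.1 ± 5.15 in CST and 29.8 ± 5.96 FPKM in Yoda1 skin. Smad7, the inhibitory Smad, measured 9.72 ± 0.590 and 7.82 ± 1.62 without overlap, a pattern of higher CST values seen in 4.52% of genes.

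**Figure D5:**
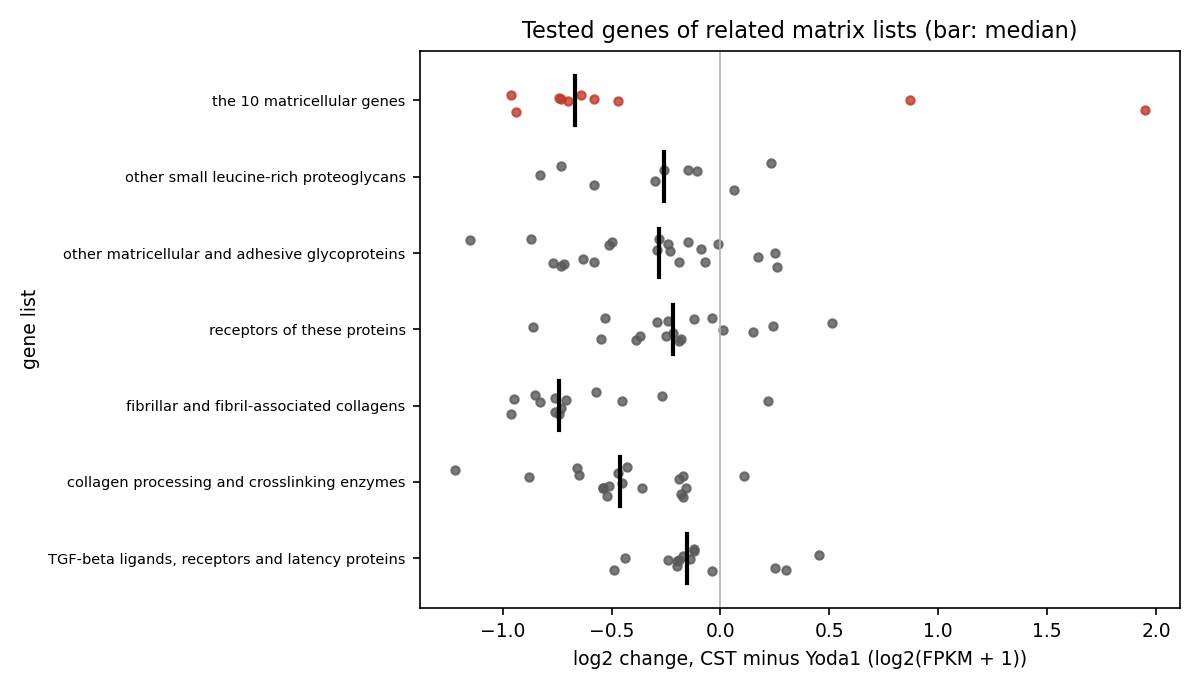
Log2 change, CST minus Yoda1, of every tested gene among the 10 genes (red) and in 6 related lists (grey), with the median of each list as a black bar. The 10 genes are labelled matricellular on the plot, though they include close companions in the matrix. The collagen list has the median farthest from 0 of the 6 related lists (-0.74), close to the -0.67 of the 10 genes.

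Summed markers of several cell types are given beside these genes. Of 11 tested fibroblast markers 9 were lower in CST, and the 12 markers summed to 337, 527 and 355 FPKM in CST mice and 791, 894 and 210 FPKM in Yoda1 mice. Macrophage markers were lower in 11 of 12 genes, with sums of 1198, 1519 and 1118 FPKM in CST mice and 2861, 3750 and 908 FPKM in Yoda1 mice. Both lists thus had the order of Fn1, Sparc and Cthrc1, with Yoda1 mice 1 and 2 highest and Yoda1 mouse 3 lowest. Neutrophil markers were higher in CST in 9 of 9 tested genes. Their sums were 11721, 1976 and 1921 FPKM in CST mice and 1718, 793 and 4219 FPKM in Yoda1 mice. CST mouse 1 stood highest, as it did for Spp1 and Thbs1. Yoda1 mouse 3 was second in these sums, but below CST mice 1 and 2 for both genes (Spp1 269, Thbs1 76.2 FPKM). S100a9 and S100a8 made up most of the sums, at 7553 and 3066 FPKM in CST mouse 1 and 2539 and 1487 FPKM in Yoda1 mouse 3. By mean log2 over the 9 tested markers, Yoda1 mouse 3 (5.59) stood below CST mice 1 (7.54) and 2 (6.02). In 4 of the 9 every CST value lay above every Yoda1 value, a pattern seen in 4.52% of genes tested. No marker of these 3 lists was at 0 in every library. Skeletal muscle markers summed to 8299 to 15905 FPKM in CST mice and 133 to 6103 FPKM in Yoda1 mice, with 13 of 13 higher in CST. Keratinocyte markers were higher by mean log2 in 8 of 8 (median log2 change 0.18), with sums of 13801 to 19492 in CST and 10715 to 25033 FPKM in Yoda1 mice. By mean FPKM Krt14 (8352 in CST, 8803 in Yoda1), Itga6 (125, 127) and Dsg3 (57.6, 68.5) were lower in CST. These genes were named after their values were seen. The part of these cell types in the differences of the 10 genes was not tested.

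Platelets are known to release thrombospondin 1, and of their 6 markers 3 reached the filter. Gp1bb was listed at 0 in every library, and Gp9 and Gp6 averaged 0.133 and 0.00682 FPKM. Ppbp, named after its values were seen, measured 91.8, 30.0 and 6.49 FPKM in CST mice and 9.76, 8.25 and 2.06 FPKM in Yoda1 mice. Its order was that of Thbs1 within the CST group but not within the Yoda1 group, where Thbs1 measured 144, 54.4 and 76.2 FPKM. Pf4 averaged 333 ± 110 FPKM in CST and 330 ± 229 FPKM in Yoda1 skin, and Itga2b 8.42 ± 3.14 FPKM in CST and 12.7 ± 6.19 FPKM in Yoda1 skin, so the 3 markers did not share a direction. Bone is rich in Spp1 and Sparc, and the 6 bone and cartilage markers summed to 0.175 to 1.71 FPKM in CST mice and 0.718 to 0.939 FPKM in Yoda1 mice, with Ibsp at 0 throughout.

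Among 10141 named genes averaging 5 FPKM or more, those most like each member over the 6 libraries had r of 0.970 to 0.998 (Pearson, log2(FPKM + 1)), and high values arise readily in a search of this size over 6 points. St6gal1, Dpysl3 and Ntn1 were most like Fn1, Dnm1, Gpihbp1 and Pofut1 most like Sparc, and Htra1, Lpar1 and Gxylt2 most like Cthrc1. Pde8a, Cfap418 and Selenof were most like Postn, Cd48, Lhfp and Colec12 most like Lum, and Cyp1b1, Tfpi and Txndc15 most like Dcn. Csgalnact1, Adgrf5 and Ifnar1 were most like Thbs2, and Terf2ip, Mtap and Xdh most like Tnc. Lilrb4a, the row named Mir7678 and Mmp13 were most like Thbs1, and Fam107b, Il1rn and Sgms2 most like Spp1. Mmp13, a collagenase, measured 62.5, 26.0 and 7.86 FPKM in CST mice and 24.4, 7.12 and 7.15 FPKM in Yoda1 mice. Il1rn, the interleukin-1 receptor antagonist, measured 327, 97.0 and 140 FPKM in CST mice and 82.1, 39.6 and 65.0 FPKM in Yoda1 mice. Every CST value of Il1rn lay above every Yoda1 value, as in 4.52% of genes tested. Il1rn was picked for its likeness to Spp1, so this separation is not a further result. Fam107b and Sgms2, picked in the same way, separated as well.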

How the data were processed

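RNA of mouse skin was measured in 6 libraries. The authors deposited 1 table of FPKM values with gene symbols; its aligner and counter were not given in the sources used here. Builds GRCm38 and mm10 appear in the submitters' processing notes. Of 52029 gene identifiers matched to GENCODE M21, 2.8% had the deposited start, so GENCODE M21 positions (GRCm38) are printed. Reads were recovered as whole numbers within 0.001 reads for 99.99% of the 14588 genes tested, which averaged 1 FPKM or more; with wrong depths 0 of 500 genes were whole.

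Changes are CST minus Yoda1 on log2(FPKM + 1), which understates the change of low genes. They were fitted with limma 3.58.1 in R 4.3.3 (mean-variance trend, two-sided, Benjamini-Hochberg over all genes tested, threshold 0.05) and tested on simulated data. An exact permutation test of 3 against 3 cannot go below p = 0.1. The mice are labelled as separate animals; p-values measure the spread between these samples. Samples with the same mouse number did not deviate together, so the numbers were not used as pairs.

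The members and lists were chosen with earlier results of these data known. Named are the 10 members, up to 3 genes of smallest p in each related list, the 3 genes most like each member, and others where said; a gene the rule named is not reported here. Upstream sequences are RefSeq's; 5 members had one. Genes overlapping Fn1, Tnc, Thbs1 and Spp1 reached at most 3.11 FPKM, and reads of overlapping genes cannot be told apart.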

Additional observations from a re-analysis of the deposited data

How the results depend on the processing

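Under all 17 alternatives the same direction was found for each of the 10 genes, and their median log2 change, -0.67, ran from -0.98 with library weights to -0.30 without Yoda1 mouse 1. The count of genes called over the whole table was 0 in the limma fit and 1348 with library weights (655 higher in CST), and leaving out 1 mouse at a time gave 0 to 136 (136 when Yoda1 mouse 2 was left out, 8 for CST mouse 2, 0 for the rest); the cause was not tested. Library weights ran from 0.193 for Yoda1 mouse 3 to 12.8 for Yoda1 mouse 1, and their estimation stopped before it converged. Yoda1 mouse 2 had a weight of 0.657, so the Yoda1 mean in that fit was mostly Yoda1 mouse 1. With these weights limma called 7 of the 10 genes, beside 1348 of all 14588 genes tested. All 7 were lower in CST: Postn (-1.37, adjusted p = 0.0211), Lum (-1.13, 0.0168), Cthrc1 (-1.55, 0.0168), Fn1 (-1.51, 0.0281), Dcn (-0.82, 0.0387), Thbs2 (-1.14, 0.0410) and Sparc (-0.80, 0.0430). Yoda1 mouse 1 was the highest of the 6 mice for each of these but Cthrc1. Under the same weights Spp1 had a log2 change of 0.10 and Thbs1 one of 0.07. Leaving out both CST mouse 1 and Yoda1 mouse 3 was chosen after seeing the data. It gave -1.75 for Cthrc1 (adjusted p = 0.332) and 1.11 for Spp1. Mouse numbers correlated in their deviations at -0.08, 0.21 and -0.20, so a replicate block pairs only numbers. With it limma called 0 genes, 680 had an unadjusted p under 0.05, and the median was -0.67. The SE of Spp1 was 0.31 with this block, against 0.76 without it (unadjusted p = 2.44e-04, adjusted p = 0.203 by limma). Postn, Lum and Thbs1 had unadjusted p = 0.0151, 0.0240 and 0.0420 by limma with the block. The median of all genes was -0.01 in the limma fit and -0.04 with quantile normalization, the farthest of the scaling alternatives. The 10 genes held at least 433 reads in every library.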

Other observations

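Lists of other skin cells are given as values, and the single genes named were chosen after their values were seen. Adipocyte markers were lower in CST in 5 of 5 tested genes (median log2 change -0.58), with sums of 611 to 796 FPKM in CST mice and 703 to 1576 FPKM in Yoda1 mice. Adipoq, the adiponectin gene, measured 86.2, 54.3 and 92.5 FPKM in CST mice and 253, 64.8 and 89.8 FPKM in Yoda1 mice, so Yoda1 mouse 1 stood apart. Endothelial markers were lower in 6 of 6 (median -0.19), and no gene was free of overlap. Pericyte markers were lower in 4 of 5 (median -0.04). The exception, Abcc9, a potassium channel subunit, measured 5.43, 2.66 and 2.59 FPKM in CST mice and 1.68, 1.79 and 1.29 FPKM in Yoda1 mice, without overlap, a pattern seen in 4.52% of all genes tested. In the smooth muscle and myofibroblast list 5 of 7 were lower (median -0.21). Acta2, the smooth muscle actin of myofibroblasts, measured 115 ± 66.6 in CST and 161 ± 57.5 FPKM in Yoda1 skin. Des, desmin, also of skeletal muscle, measured 802 ± 63.4 in CST and 233 ± 322 FPKM in Yoda1 skin. Schwann cell markers had a median of 0.26.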
